A study of Mus musculus with 10 samples.

Results

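Chromatin at 10 genes used as markers of astrocytes or of their formation, Gfap, Aqp4, Aldh1l1, S100b, Slc1a2, Sparcl1, Cd44, Gja1, Gjb6 and Nfia, was compared between control and crotonate-treated neural stem and progenitor cells. The 10 genes were chosen by name from 21887 protein-coding genes, with earlier results of these data known. For each, every peak that touched the gene body or the 5 kb on either side (the window) was taken from all lists, with gene bodies from RefSeq (GRCm38). The cells came from the forebrain of mouse embryos at E13.5 and were expanded to passage 2 or 3 with epidermal growth factor and fibroblast growth factor in the medium, 20 ng/ml of each. Control cultures received water and treated cultures received 10 mM crotonate for 24 h, a short fatty acid from which crotonyl-CoA can be made, and the labels name no strain or genotype. Native ChIP-seq, done on chromatin without crosslinking, gave 1 library per treatment for H3K4me3, H3K9cr (crotonylated lysine), H3K27ac and H3K27me3. There were no replicates, so no difference below could be tested and every value describes single libraries.

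Astrocytes support neurons by clearing glutamate and potassium, moving water and coupling to each other through gap junctions. Neural progenitors of the forebrain make neurons first and astrocytes later, and nuclear factor I proteins such as NFIA together with STAT3 signalling take part in that switch. H3K4me3 marks the starts of active or poised genes, H3K27ac and H3K9cr mark active starts and enhancers, and H3K27me3 is laid down by Polycomb repressive complex 2 on genes held silent.

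The sequences before the starts of 4 members are shown because these starts carried the most different sets of marks: H3K27me3 lay across the Gjb6 start and inside the Gfap gene body, S100b carried only H3K27ac, and Gja1 carried strong H3K4me3. Each is the 250 bases before the RefSeq start (GRCm38.p6), 5′ to 3′ on the gene's strand, with every CG dinucleotide in capitals. They are Gfap at chr11:102897201-102897450 (minus strand), Gjb6 at chr14:57133612-57133861 (minus), S100b at chr10:76253586-76253835 (plus) and Gja1 at chr10:56377050-56377299 (plus).
Gfap: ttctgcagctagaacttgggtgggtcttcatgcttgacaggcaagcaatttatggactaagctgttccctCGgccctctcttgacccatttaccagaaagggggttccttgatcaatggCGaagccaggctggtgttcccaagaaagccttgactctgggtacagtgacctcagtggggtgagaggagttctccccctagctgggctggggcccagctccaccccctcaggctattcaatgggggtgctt
Gjb6: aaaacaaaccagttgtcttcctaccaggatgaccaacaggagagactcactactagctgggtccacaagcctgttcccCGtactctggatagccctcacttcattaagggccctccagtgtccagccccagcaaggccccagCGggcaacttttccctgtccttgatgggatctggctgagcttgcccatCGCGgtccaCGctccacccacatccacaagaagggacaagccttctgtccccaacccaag
S100b: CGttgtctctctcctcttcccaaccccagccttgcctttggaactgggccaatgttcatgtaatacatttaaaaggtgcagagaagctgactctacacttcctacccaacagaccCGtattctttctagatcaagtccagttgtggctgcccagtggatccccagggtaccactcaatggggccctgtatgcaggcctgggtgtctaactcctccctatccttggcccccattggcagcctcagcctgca
Gja1: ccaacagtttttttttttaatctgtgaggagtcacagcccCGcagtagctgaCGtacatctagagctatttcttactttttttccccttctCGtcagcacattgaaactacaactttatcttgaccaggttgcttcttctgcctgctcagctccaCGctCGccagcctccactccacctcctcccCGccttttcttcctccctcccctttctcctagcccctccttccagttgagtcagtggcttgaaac
All 4 held fewer CG than the median promoter. Gfap and S100b each held 2 CG dinucleotides, Gjb6 held 5 and Gja1 held 6, beside a median of 10 over 17492 RefSeq promoters of the same length. As few as 2 were found in 23.6% of promoters, and as few as 6 in 41.3%, so the strongly H3K4me3-marked Gja1 start was close to the Gjb6 start on this measure. Of the motifs searched on both strands, CCAAT (in 36.3% of promoters) lay in S100b at 202 to 198 bases before the start and, on the opposite strand, at 20 to 16 bases. TATAAA (12.4% of promoters), GGGCGG (42.7%), the STAT motif TTCNNNGAA (6.69%) and the palindromic NFI motif (TTGGC and its reverse complement 5 bases apart, 0.0400%) matched none of the 4 sequences. Among the other members with an entry, Aldh1l1 held CCAAT at 103 to 99 and at 63 to 59 bases before its start, both on the opposite strand, and GGGCGG at 45 to 40 bases. Nfia held CCAAT on the opposite strand at 99 to 95 bases before its start in the promoter table.

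The H3K4me3 lists held 17322 (control) and 18001 (crotonate) peaks, those of H3K9cr 31905 and 32666, of H3K27ac 52922 and 59868, and of H3K27me3 26031 and 34707. The median peak pileup, the authors' count of stacked fragments, was lower in the crotonate list of every mark: 374 beside 423 (H3K4me3), 41 beside 74 (H3K9cr), 17 beside 23 (H3K27ac) and 15 beside 16 (H3K27me3). Pileup, fold over the caller's background and −log10 q are the authors' values. They are set side by side for the 2 treatments below as a description of each list, and no change is read from them. Per the labels, both treatments of a mark had the same antibody catalogue number, but the vendor differed for H3K4me3 and H3K27me3, and for H3K9cr and H3K27ac it was given in control only. Treatment, library and antibody source cannot be told apart, nor can a mark on fewer cells and less of it on every cell. In control, H3K4me3 marked the start at 6 of 6 stem and progenitor markers, 4 of 5 neuron markers and 3 of 5 oligodendrocyte lineage markers. It marked 0 of 5 microglia markers, 1 of 5 endothelial markers and 3 of 5 fibroblast and mural markers. Starts with both H3K4me3 and H3K27me3 in control numbered 2, 2, 2, 0, 1 and 3 in these groups, in the same order.

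The members fell into 3 kinds by the marks at their starts. Aldh1l1, Slc1a2, Sparcl1, Cd44, Gja1 and Nfia carried H3K4me3, H3K9cr and H3K27ac at their starts in both treatments. Gfap and Gjb6 carried H3K27me3 without H3K4me3 in control. S100b and Aqp4 had neither H3K4me3 nor H3K27me3 at their ends. Aqp4, for which only the annotated ends could be read, did hold a H3K4me3 peak inside its gene body in both lists. A start was called marked if a peak came within 1 kb of it. H3K4me3 marked 6 of the 10 starts in control and 7 after crotonate, beside 60.5% and 61.8% of all protein-coding genes. H3K9cr also marked 6 and then 7 (61.9% and 63.1% of genes), and H3K27ac marked 8 and then 7 (57.8% in each list). H3K27me3 marked 4 starts in control and 2 after crotonate, beside 21.2% and 19.1% of genes. Aldh1l1, Slc1a2, Gja1 and Nfia shared their pattern over the 8 lists with 42.6% of all genes, among them the astrocyte genes Slc1a3, a glutamate transporter, and Glul, glutamine synthetase.

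A control peak was called lost when it touched no crotonate peak of the same mark, and a crotonate peak was called gained in the reverse case. Of the members' H3K27me3 peaks, 8 of 18 in control were lost (44.4%, exact 95% interval 21.5 to 69.2%), beside 26.2% over all protein-coding windows, and 0 of 8 crotonate peaks were gained (upper bound 36.9%), beside 38.4%. For H3K4me3, 2 of 15 were lost (13.3%, 1.66 to 40.5%; 1.76% of all) and 5 of 18 gained (27.8%, 9.69 to 53.5%; 5.45% of all). All of these unshared H3K4me3 peaks were weak for their lists. They stood at percentiles 0.156 and 4.21 of −log10 q (lost) and 0.511 to 6.52 (gained). A lost peak (chr4:97844803-97845285) and a gained peak (chr4:97844367-97844623) of Nfia were close neighbours, so 1 site was counted in both directions. For H3K9cr, 9 of 48 were lost (18.8%, 8.95 to 32.6%) beside 11.8%, and 3 of 45 gained (6.67%, 1.40 to 18.3%) beside 14.5%. For H3K27ac, 31 of 90 were lost (34.4%, 24.7 to 45.2%) beside 23.1%, and 18 of 84 gained (21.4%, 13.2 to 31.7%) beside 31.1%. The background share lay outside the interval for gained H3K4me3, lost H3K27ac and gained H3K27me3 only, and none of the 3 counts was stable under every setting. When an overlap of 50% of both peaks was required, 3 of the 8 H3K27me3 peaks were gained, and with lists of equal length 2 of 14 H3K4me3 peaks were. The shares over all windows were not counted under these 2 settings, so these counts have no background to be read against. The intervals, Clopper-Pearson, cover counting error only and treat peaks as independent, which neighbouring peaks of 1 gene are not. Nfia, by far the longest member, held most of the peaks of the active marks. Without it, H3K27ac losses were 8 of 28 (28.6%, 13.2 to 48.7%) and H3K4me3 gains 2 of 8 (3.19 to 65.1%), and both intervals held the background share. H3K27ac gains were then 13 of 35 (37.1%), H3K9cr losses 3 of 14 and gains 2 of 13, H3K4me3 losses 0 of 6 and H3K27me3 losses 7 of 17 (41.2%).

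**Figure D1:**
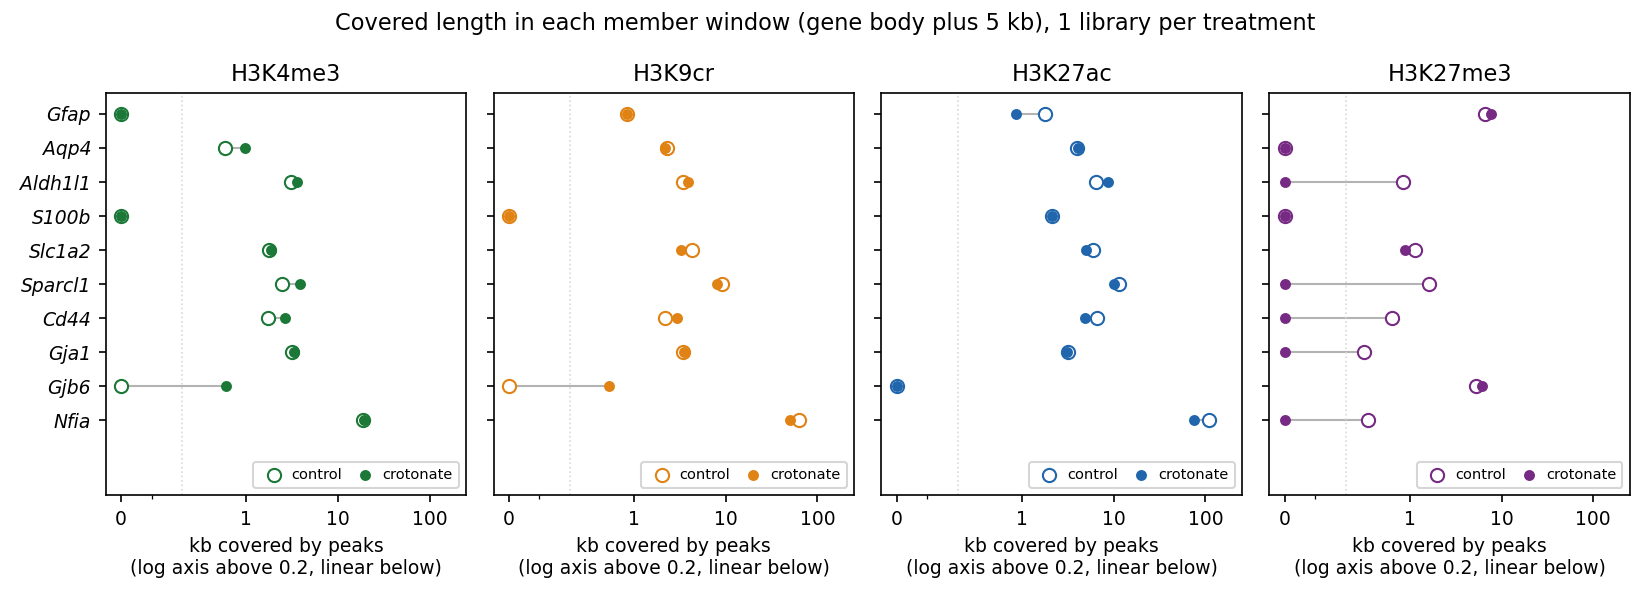
Length covered by peaks of each mark in each member's window, in kb (log axis above 0.2 kb, linear below), with open circles for the control library and filled circles for the crotonate library. H3K27me3 points go to 0 at Aldh1l1, Sparcl1, Cd44, Gja1 and Nfia, and H3K4me3 and H3K9cr points leave 0 at Gjb6.

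As the plot of covered length shows, a mark appeared in or left the window in 6 of the 10 members: H3K27me3 left 5 of them, and H3K4me3 and H3K9cr appeared at Gjb6. Of the 3 members with H3K27me3 in both lists, 1 covered less after crotonate (48.8% of genes), with ratios of 0.782 to 1.16. H3K4me3 covered more of the window after crotonate in all 7 members that had it in both lists, with ratios of 1.02 to 1.63 (median 1.16, beside 1.03 over all genes, of which 30.5% covered less). H3K27ac covered less in 7 of 9 members (70.3% of genes), with a median ratio of 0.894 that was the same as over all genes. H3K9cr covered less in 5 of 8 members (47.6% of genes), with ratios of 0.761 to 1.35 and a median of 0.966.

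Gfap, an intermediate filament gene used as an astrocyte marker, lay at chr11:102887336-102897200 on the minus strand and had no H3K4me3 peak in either list. It carried 6 H3K27me3 peaks in control and 6 after crotonate, all shared, which covered 6.58 kb and 7.60 kb of the window. The strongest peak in control, at chr11:102892507-102895316 inside the gene body, had a pileup of 73 and a fold of 17.0, and its crotonate counterpart, at chr11:102892596-102895678, had 57 and 15.8. The mark lay on the Gfap body in both libraries but did not reach the start: the nearest peak spanned 0.322 to 1.60 kb inside the gene in control (fold 2.77) and 0.768 to 1.17 kb after crotonate (fold 3.40). Upstream, within the noncoding RNA gene Gm34560, a H3K27ac peak reached from −2.16 to −0.375 kb relative to the start in control (1783 bp, fold 5.84), and the shared crotonate peak from −1.87 to −1.01 kb (862 bp, fold 5.44). The ratio of these lengths, 0.483, was the lowest of the 9 members with H3K27ac. The narrower peak ended just outside 1 kb, so the start was counted as having lost H3K27ac, as were 3.08% of marked starts over all genes. The 2 H3K9cr peaks in each list were all shared and weak, with folds of 3.02 and 3.62 in control and 3.33 and 3.57 after crotonate.

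Gjb6, which encodes the astrocyte gap junction protein connexin 30, lay at chr14:57123301-57133611 on the minus strand and had the strongest H3K27me3 of the members. The control list held a peak of 4413 bp over the start (chr14:57130474-57134886, pileup 228, fold 62.1) and weak peaks of 552 and 307 bp upstream. After crotonate a single peak of 6140 bp spanned all 3 (chr14:57130316-57136455, pileup 202, fold 55.3). Inside that domain the crotonate lists held a H3K4me3 peak of 606 bp at chr14:57132837-57133442 (pileup 20, fold 5.42, −log10 q 9.20) and a H3K9cr peak of 526 bp at chr14:57132994-57133519 (pileup 23, fold 5.71, −log10 q 10.95). Neither mark had a control peak in the window, and H3K27ac had none in either list. A first peak in the window after crotonate was found for H3K4me3 in 4.77% of the genes without one in control, and for H3K9cr in 5.96%. No other member gained a mark new to its window (background 7.76% for H3K27ac and 7.17% for H3K27me3). Few could have: in control, H3K27ac was missing only from the window of Gjb6, and H3K27me3 only from those of Aqp4 and S100b. Both gained peaks lay within 0.8 kb downstream of the start whose upstream sequence is printed above. The H3K4me3 peak was weak for its list, at percentile 6.52 of −log10 q, and the H3K9cr peak stood at percentile 34.8. Of genes without H3K4me3 at the start in control, 3.69% had it after crotonate, and for H3K9cr the share was 4.51%. The same pattern over the 8 lists was found at the starts of 92 genes, Gjb6 included, or 0.420%.

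**Figure D2:**
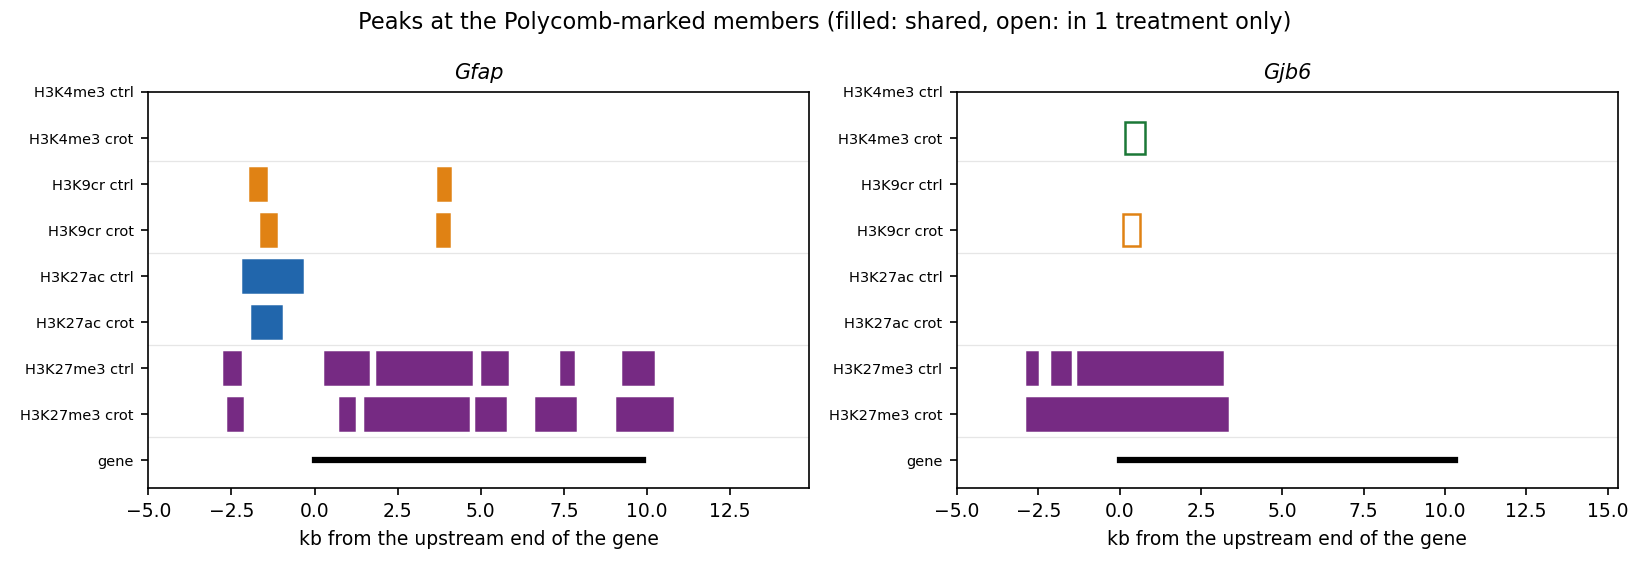
Peaks of the 4 marks in control (ctrl) and crotonate (crot) at Gfap and Gjb6, by distance in kb from the upstream end of the gene (black bar). Filled boxes are shared peaks and open boxes are peaks in 1 treatment only; H3K27me3 lies on both genes in both lists, and the only open boxes are H3K4me3 and H3K9cr at the Gjb6 start.

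The map of Gfap and Gjb6 sets these peaks side by side. Gja1, which encodes connexin 43, the other main gap junction protein of astrocytes, differed from Gjb6 at the start in every mark in control. At its start (chr10:56377300-56390419, plus strand) H3K4me3 covered 3123 bp with a fold of 120 in control and 3356 bp with a fold of 129 after crotonate. H3K9cr had pileups of 578 and 287 there and H3K27ac 96 and 76. A H3K27me3 peak of 317 bp (chr10:56378738-56379054, pileup 16, fold 4.61) lay inside the H3K4me3 peak in control and was lost. A weak H3K27ac peak 8.27 kb into the gene was gained (fold 4.08).

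The water channel gene Aqp4 (chr18:15389394-15410982) had no peak of any mark within 1 kb of either annotated end, a pattern shared with 30.5% of genes. Its strongest peaks lay inside the gene body, around 13.4 to 18.5 kb from the lower-numbered end and near an end of the noncoding RNA gene A830021F12Rik. The H3K4me3 peak there was 588 bp wide in control (pileup 37, fold 9.71) and 960 bp after crotonate (pileup 60, fold 10.8). That ratio, 1.63, was the highest for H3K4me3 among the members. All 3 H3K9cr peaks were shared, and a H3K27ac peak of 3482 bp in control corresponded to peaks of 1552 and 1308 bp after crotonate. No H3K27me3 peak was listed in its window in either treatment, as at S100b.

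S100b, a calcium-binding protein of astrocytes (chr10:76253836-76261319, plus strand), was marked by H3K27ac only, in 4 peaks covering 2.15 kb in both lists. The peak at the start had a pileup of 14 and a fold of 3.42 in control, and 17 and 4.89 after crotonate. Of the rest, 1 was shared, 2 control peaks inside the gene body were lost, and 2 crotonate peaks in the downstream flank were gained, of which 1 lay within the neighbouring gene Dip2a. Only 106 genes (0.484%) had H3K27ac alone at the start in both lists.

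Slc1a2, the glutamate transporter GLT-1 (chr2:102658239-102790784, plus strand), had a H3K4me3 peak of 1777 bp in control (pileup 536, fold 102) and 1885 bp after crotonate (pileup 385, fold 99.6) just inside the upstream end. It was the only one of the 6 H3K4me3-marked members with H3K27me3 in control that still had H3K27me3 after crotonate. That peak was 1140 bp wide in control, from 1.17 to 2.31 kb (fold 9.49), and 892 bp after crotonate, from 1.82 to 2.71 kb (fold 4.13). A site about 86 kb into the gene, overlapping the annotated gene Gm13872, had peaks of both acyl marks in both lists: H3K9cr had pileups of 68 and 64, and H3K27ac 72 and 87. A site 4.88 kb into the gene lost H3K9cr (pileup 29, fold 6.33) and H3K27ac (pileup 16, fold 4.14) together.

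Aldh1l1, a folate enzyme used as a pan-astrocyte marker (chr6:90550768-90599171, plus strand), gained the most H3K27ac peaks, 7 of the 10 in the crotonate list, while 2 of 5 in control were lost. As many as 7 gained peaks were found in 2.58% of genes with a crotonate H3K27ac peak. The gained peaks were weak, with pileups of 10 to 14 and folds of 2.83 to 4.08, against 39 and 7.72 for the shared peak at the start in the same list. The covered length was 6.45 kb in control and 8.58 kb after crotonate. At the start, H3K4me3 covered 3101 and then 3596 bp (pileups 248 and 337), and H3K9cr covered 3132 and then 3425 bp (pileups 293 and 163). About 10 to 13 kb into the gene, 4 control peaks were lost side by side: 2 of H3K27ac (the stronger with fold 6.19) and then 2 of H3K27me3 (folds 2.98 and 3.25). A H3K9cr peak within the first of them was lost as well.

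Sparcl1, the secreted matrix protein hevin (chr5:104079108-104114088), carried a broad acylated domain at its higher-numbered end. H3K27ac covered 9840 bp there in control and 9492 bp after crotonate, at width percentiles 99.8 and 99.9 of their lists. H3K9cr covered 8306 and 8121 bp of the same domain. H3K4me3 covered 2432 bp in control (pileup 103) and 3487 bp after crotonate (pileup 152), with a further gained peak of 349 bp inside the domain. The control list also held 3 H3K27me3 peaks within the domain, of 620, 430 and 568 bp with folds of 3.10 to 3.79, and the crotonate list held none. A H3K9cr peak at 22.8 to 23.5 kb from the lower-numbered end was lost (fold 4.22). Of the 2 control H3K27ac peaks it overlapped, that at 22.6 to 22.95 kb was shared and that at 23.2 to 23.5 kb (fold 4.86) was lost.

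Cd44, a hyaluronan receptor of astrocyte-restricted precursors and reactive astrocytes (chr2:102811141-102901669, minus strand), had a H3K4me3 peak of 1717 bp in control (pileup 345) and 2672 bp after crotonate (pileup 408). H3K9cr covered 2157 and then 2916 bp at the same place, and both marks extended further into the gene after crotonate. A H3K27me3 peak of 633 bp (fold 3.79) at −1.21 to −0.575 kb from the upstream end was lost. Of 6 H3K27ac peaks in each list 5 were shared, and the covered length was 6.57 kb and then 4.86 kb.

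**Figure D3:**
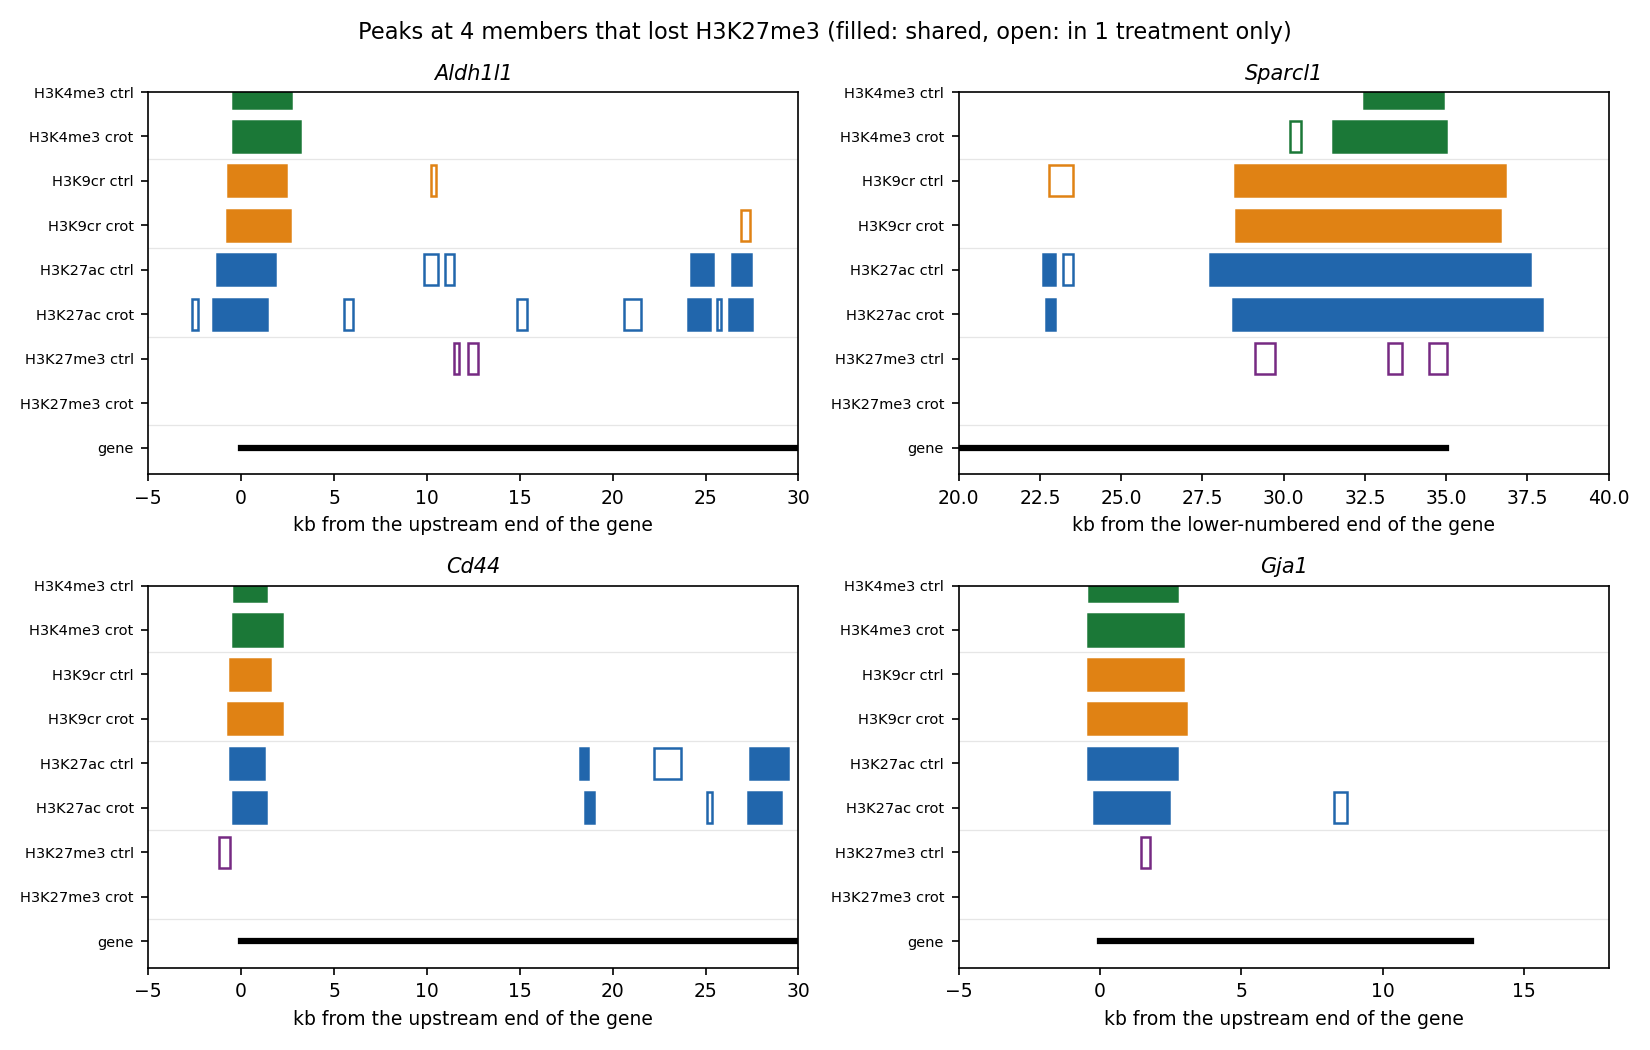
Peaks of the 4 marks in control (ctrl) and crotonate (crot) at Aldh1l1, Sparcl1, Cd44 and Gja1, by distance in kb from the upstream end of the gene, or from the lower-numbered end for Sparcl1. Filled boxes are shared peaks and open boxes are peaks in 1 treatment only. Every H3K27me3 box is open and in the control row. At Sparcl1 and Gja1 these lie within filled boxes of active marks, at Cd44 at the edge of such boxes, and at Aldh1l1 beside open H3K27ac boxes.

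Nfia, the gliogenic transcription factor (chr4:97578066-98118876, plus strand), differed from the other members in scale. It held 9 H3K4me3 peaks in control and 10 after crotonate, 34 and 32 for H3K9cr, and 62 and 49 for H3K27ac. The strongest H3K4me3 peaks lay 2.87 to 7.47 kb into the gene and between 173 and 203 kb. The broadest H3K4me3 peak was 6491 bp in control (chr4:97774692-97781182, pileup 709, fold 181) and 6587 bp after crotonate (pileup 601, fold 155). Over these sites H3K9cr covered up to 10441 bp in 1 peak in control and 10087 bp after crotonate, and H3K27ac 11835 and 9659 bp.

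H3K27ac covered 109.6 kb of the Nfia window in control and 75.3 kb after crotonate, a ratio of 0.687, and H3K9cr 62.9 and 50.1 kb, a ratio of 0.796. H3K4me3 covered 19.0 and 19.4 kb. Of the H3K27ac peaks 23 of 62 were lost (37.1%) and 5 of 49 gained (10.2%), and of the H3K9cr peaks 6 of 34 were lost (17.6%) and 1 of 32 gained (3.13%). The lost H3K27ac peaks were spread along the gene, with −log10 q of 1.32 to 11.7, and the strong H3K4me3-marked sites named above kept H3K27ac in both lists. Among 52 genes with at least 30 control H3K27ac peaks, 46.2% lost more than they gained, and 9.62% had a covered length ratio as low as that of Nfia.

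**Figure D4:**
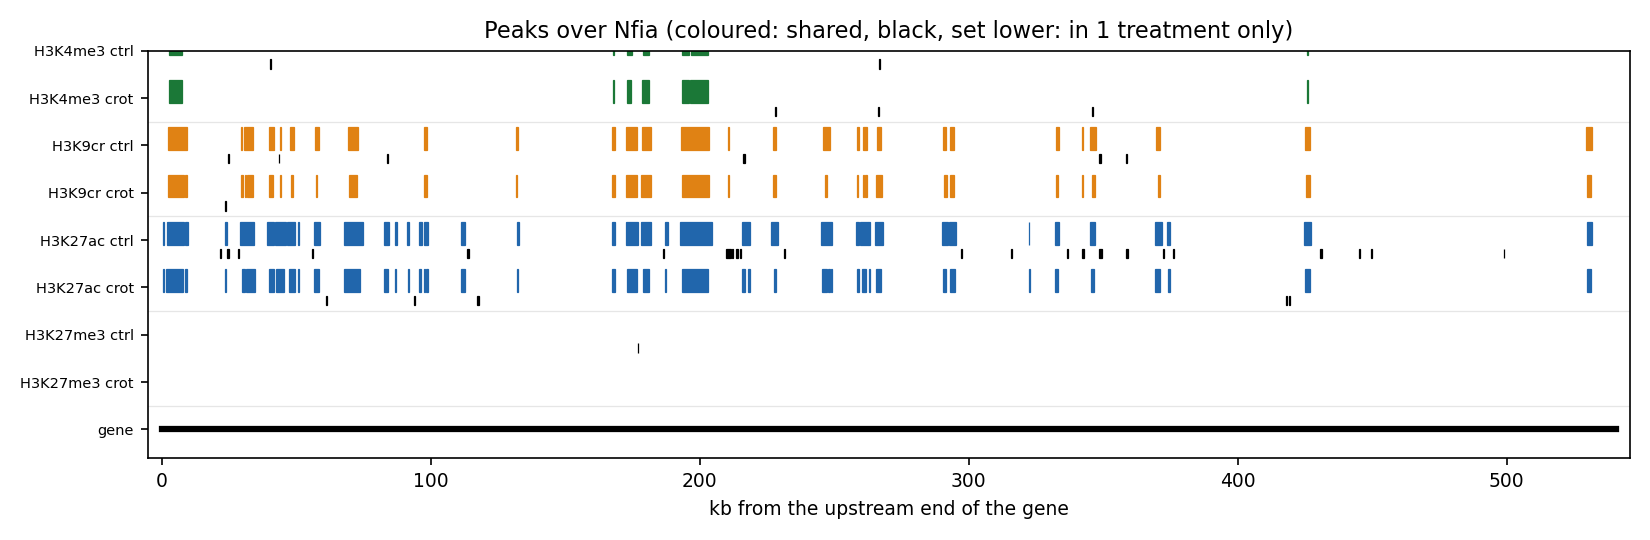
Peaks of the 4 marks over Nfia in control (ctrl) and crotonate (crot), by distance in kb from the upstream end of the gene (black bar). Coloured boxes are shared peaks and the black boxes set lower are peaks in 1 treatment only: in the H3K27ac rows there are 23 of these in control and 5 after crotonate, while the broad sites near the upstream end and around 200 kb are shared.

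The map of Nfia shows that the unshared peaks lay between and beside the shared ones. Across the members, all 9 lost H3K9cr peaks touched a control H3K27ac peak. So did every shared control H3K9cr peak of the members except that at chr11:102893126-102893499 in Gfap, so this was not particular to lost peaks. Of the 9, 6 peaks, in Aldh1l1, Slc1a2, Sparcl1 and Nfia, touched a H3K27ac peak that was itself lost. Over all protein-coding windows, 393 of 2920 lost H3K9cr peaks touched a lost H3K27ac peak. How many of the 2920 touched any control H3K27ac peak was not counted, whereas all 9 of the members did. The share of joint loss at the members is therefore not read as higher than over all windows.

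Each of the 7 members with H3K4me3 in its window in control, the 8 with H3K9cr and the 9 with H3K27ac still had that mark after crotonate, beside 0.363%, 0.85% and 2.42% of all genes that no longer did. H3K27me3 was the only mark to leave a member's window altogether. Of 8 members with a control peak, 5 (Aldh1l1, Sparcl1, Cd44, Gja1 and Nfia) had none after crotonate, beside 11% of all genes with a control peak. All 5 carried H3K4me3 in control, and their 8 lost peaks were weak, with pileups of 10 to 16, folds of 2.98 to 4.61, −log10 q of 2.04 to 6.27 and widths of 258 to 633 bp. Of the members' 9 control peaks in windows with H3K4me3, 8 were lost (88.9%, 51.8 to 99.7%), beside 27.4% in such windows over all genes. Of the 9 at Gfap and Gjb6, which lacked H3K4me3 in control, 0 were lost (upper bound 33.6%), beside 17%. The shares of 11%, 27.4% and 17% over all genes cover peaks of every strength. No share was counted for peaks as weak as the 8 lost ones, so the part of peak strength was not tested. The size of the split between windows with and without H3K4me3 also depends on the 1 bp rule. When an overlap of 50% of both peaks was required, 13 of the 18 control peaks of the members were lost. Among these were the peaks of 358 and 1283 bp at Gfap and those of 552 and 307 bp at Gjb6. The share over all windows was not counted under the 50% rule, so 13 of 18 has no background to be read against. The vendor label of the H3K27me3 antibody differed between the treatments, and its part in these counts was not tested.

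**Figure D5:**
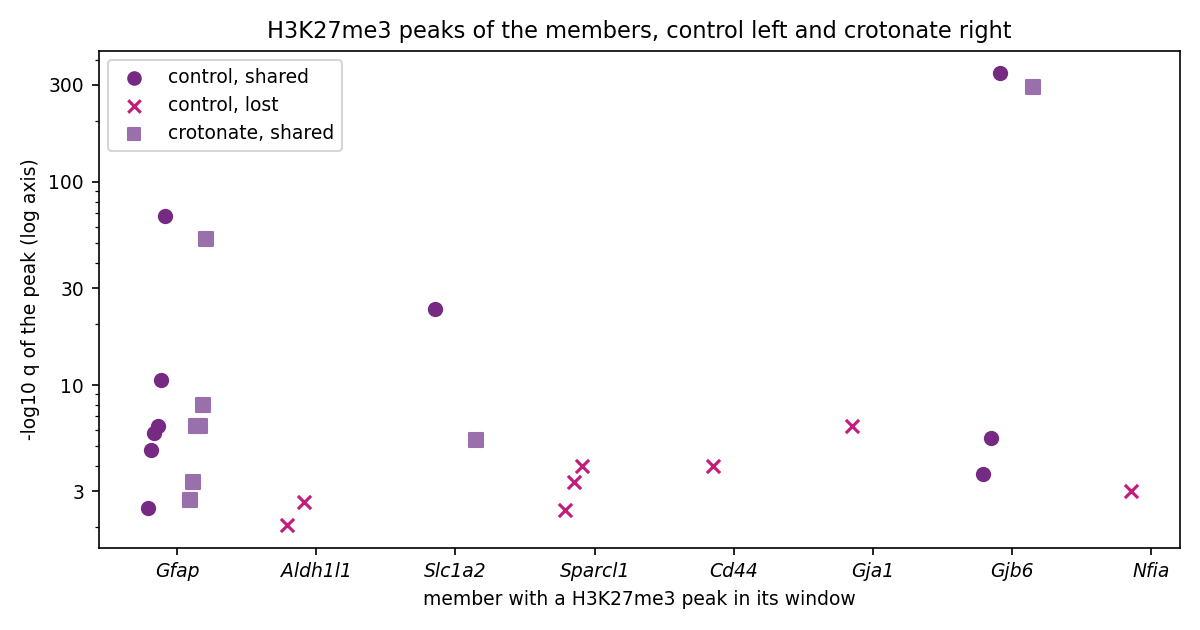
Strength (−log10 q, log axis) of each H3K27me3 peak in the members that had one, with control peaks on the left and crotonate peaks on the right of each gene. Crosses are control peaks with no crotonate counterpart, and all 8 lie at or below 6.27. The weak peaks of Gfap and Gjb6 at the same height touched a crotonate peak and so counted as shared. Some of them did not when an overlap of 50% of both peaks was required.

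In the plot of H3K27me3 strength the lost peaks share their height with 6 shared peaks of Gfap and Gjb6. Among these are the Gfap peaks of 358 and 1283 bp and the Gjb6 peaks of 552 and 307 bp. They counted as lost when an overlap of 50% of both peaks was required, so this contrast depends on the overlap rule. At the start itself, H3K27me3 was lost at Sparcl1 and Cd44, beside 18.3% of all starts that had it in control. The pattern of these 2 genes, with H3K4me3, H3K9cr and H3K27ac in both lists and H3K27me3 in control only, was found at 741 genes (3.39%).

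A wider list of 27 astrocyte genes was read in the same way. Like the members, it was chosen with earlier results of these data known, so it is not independent of them. H3K4me3 marked 26 of their starts in control and 25 after crotonate, H3K9cr 26 and 24, and H3K27ac 26 and 25. H3K27me3 marked 8 and then 3, a loss at 5 of 8 beside the 18.3% given above: it was lost at Gpc4, a cell-surface proteoglycan, and Vcan, a matrix proteoglycan (pileup 33 and fold 9.21 at each), at Ndrg2 (26 and 6.68), at Cbs, a cystathionine synthase (19 and 3.77), and at Slc4a4, a bicarbonate cotransporter (13 and 3.79). These 5 genes had the pattern of Sparcl1 and Cd44. Over the whole windows of the list 10 of 16 H3K27me3 peaks were lost (62.5%, beside 26.2% over all windows) and 2 of 9 gained (22.2%, beside 38.4%). For H3K4me3 3 of 33 were lost (9.09%, beside 1.76%) and 1 of 31 gained (3.23%, beside 5.45%). For H3K9cr 8 of 59 were lost (13.6%, beside 11.8%) and 1 of 53 gained (1.89%, beside 14.5%), and for H3K27ac 39 of 132 were lost (29.5%, beside 23.1%) and 42 of 144 gained (29.2%, beside 31.1%). Active marks were lost at the starts of Ntsr2, a neurotensin receptor (H3K4me3, fold 6.39, and H3K9cr, fold 8.65), Aldoc, a glycolytic enzyme (H3K9cr, fold 9.07), and Gpr37l1 (H3K27ac, fold 4.14). Such losses at marked starts made up 0.279% (H3K4me3) and 0.827% (H3K9cr) over all genes. None of the 4 marks was gained at a start of the list. In control 26 of the 27 starts already carried H3K4me3, and as many carried H3K9cr and H3K27ac, so hardly any gain of these marks was possible. Gains of H3K27ac and H3K27me3 over all genes made up 4.33% and 2.28% of unmarked starts. With so few unmarked starts for these 3 marks, their absence of gains is not read as a result. H3K27me3 marked only 8 of the 27 starts in control, so most could have gained it. With a share over all genes as low as 2.28%, its absence of gains is not read as a result either.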

How the data were processed

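Peak lists of 8 ChIP-seq libraries were used, 1 per mark and treatment. Per the submitters' processing notes, Bowtie2 2.4.1, MACS2 2.2.7.1 and GRCm38 were used, and each list names 1 library. Read depth is unknown, and no source used here states how the 2 inputs entered peak calling. Each deposited list gives a pileup (signal, coverage at the summit), a fold enrichment (ratio over the caller's local background) and −log10 p and q values, all as the authors computed them. The lowest −log10 q in any list was 1.30. Samples were grouped by their labels.

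Peaks were assigned to RefSeq genes with 5 kb on either side, and lists were compared by an overlap of at least 1 bp, with Python 3.11.15, pandas 2.3.3 and scipy 1.17.1. The overlap code was tested on simulated data. The start was the upstream annotated end or the start in the RefSeq promoter table, so Slc1a2 and Nfia, whose table start lies inside the gene, had both. For the 4395 genes without a table entry (Aqp4 and Sparcl1 among the members), both annotated ends were used. Positions are given as gene body or flank, since exons were not used here. All 10 members are named. Of the further lists, genes are named where a start lost or gained a mark or shared a member's pattern. The members and lists were chosen with earlier results of these data known. Alternatives varied the overlap, peak strength, list length, flank and start. No test or p-value was computed.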

Additional observations from a re-analysis of the deposited data

How the results depend on the processing

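Of 96 alternative values for the 16 counts of the members' lost and gained peaks and marked starts, 82 stayed within 1.5 times the count reported, and 14 did not. With an overlap of 50% of both peaks required, lost H3K9cr peaks numbered 16 in place of 9 and gained ones 13 in place of 3, gained H3K27ac peaks 39 in place of 18, and lost and gained H3K27me3 peaks 13 and 3 in place of 8 and 0. With both lists of a mark reduced to the same number of peaks, gained H3K4me3 peaks numbered 2 in place of 5 and gained H3K27ac peaks 11 in place of 18. Lost H3K4me3 peaks numbered 1 in place of 2 when peaks within 1 kb counted as shared, and 1 when only peaks with −log10 q of at least 2 were used. With 500 bp either side of the start, 1 member in place of 2 carried H3K27me3 there after crotonate. Without Nfia, an alternative chosen after seeing the data, lost H3K4me3, H3K9cr and H3K27ac peaks numbered 0, 3 and 8 and gained H3K4me3 peaks 2, as Nfia holds most of these peaks. For the other settings the cause was not tested. No paired analysis was possible because each mark and treatment had 1 library and the labels give no replicate numbers. Depth could not be read from the lists, so a peak missing from a list may be below its threshold and is not shown to be absent.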

Other observations

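The 12 gliogenic regulators (nuclear factor I genes Nfib and Nfix, Sox9, Zbtb20 and the receptors and transducers of the STAT3 and BMP pathways) carried H3K4me3 and H3K9cr at all 12 starts in both lists, and H3K27ac at 11 in both. H3K27me3 marked 2 of the starts in both lists. In their windows 7 of 21 H3K27me3 peaks were lost (33.3%) and 4 of 27 gained (14.8%), beside 26.2% and 38.4% over all protein-coding windows. For H3K4me3, 0 of 21 peaks were lost and 0 of 21 gained, beside 1.76% and 5.45%. For H3K9cr, 11 of 76 were lost (14.5%) and 18 of 83 gained (21.7%), beside 11.8% and 14.5%, where the astrocyte genes gained 3 of 45 (6.67%). For H3K27ac, 47 of 123 were lost (38.2%) and 51 of 138 gained (37.0%), beside 23.1% and 31.1%.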
